A study of Mus musculus with 3 samples.

Results

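The 8 genes described here are Rsrp1, which encodes a small protein rich in arginine and serine, the 4 CDC-like kinases Clk1, Clk2, Clk3 and Clk4, and the 3 Luc7-like genes Luc7l, Luc7l2 and Luc7l3. They were taken by symbol, 8 of the 22028 protein-coding genes and of the 55536 genes of the annotation in all, together with their 87 annotated transcripts. The set was chosen by the level of Rsrp1, which was among the highest of the coding genes in TPM (a transcript level corrected for length and scaled to a fixed sum). The level of Rsrp1, and the share of its transcripts within that level, are therefore given as a description without a test. The RNA was total RNA depleted of ribosomal RNA from the chromatin fraction of C57BL/6J mouse bone marrow-derived macrophages (BMDM), primary cells that grow out of marrow in culture. All 3 libraries belonged to 1 group: cells given 100 ng/ml lipid A (the membrane-anchored part of lipopolysaccharide, a TLR4 ligand) for 12 h, washed out for 12 h, and given 100 ng/ml lipid A again for 30 min. The libraries were 3 biological replicates that share 1 donor identifier in the labels, so errors and p-values measure the spread between these samples. Age and sex were not collected, and no untreated cells and no other cell fraction were analysed here, so no value below is an effect of lipid A or of the fraction.

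CLK kinases phosphorylate serine and arginine rich (SR) splicing factors and thereby set where these factors act in the nucleus. Luc7-like proteins associate with the U1 snRNP, the particle that recognises the 5′ splice site at the start of an intron. A partly spliced Clk1 RNA that keeps the introns around exon 4 and stays in the nucleus is known from mouse cells. Chromatin RNA holds transcripts still being made as well as finished ones that stay attached. Reads from an intron not yet spliced and from an intron kept in a finished RNA therefore cannot be told apart, and the annotation type retained_intron is used below only as the name of a transcript model. In bulk samples, fewer cells of a type and less RNA per cell cannot be told apart either.

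Total expected counts, the estimated reads per library, were 12532722, 18395358 and 18237730 for replicates 1, 2 and 3, whose RNA input was 1 µg, 250 ng and 500 ng. Input and replicate cannot be told apart. The 9 macrophage markers had mean levels between 36.3 and 345 TPM, the 4 granulocyte markers, Ly6g, S100a8, Mpo and Elane, were at 0 in every library, and no lymphoid marker had a mean above 0.127 TPM. Retained_intron transcripts took 37.8%, 33.7% and 33.0% of the counts of all genes that have such a transcript.

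Sequences are shown for the edges of the introns that the leading transcripts of Rsrp1 and of the CLK genes keep, since the results on those transcripts turn on them. In all 4 CLK genes the retained_intron transcript with the most counts runs without a break from exon 3 through exon 4 into exon 5. Exon 4 is shown with capitals for the exon and 10 intron bases in lower case on each side, read 5′ to 3′ on the strand of the gene from the GENCODE M21 transcripts (mm10). The places are chr1:58420111-58420221 on the minus strand for Clk1, chr11:51273068-51273178 on the plus strand for Clk4, chr3:89169608-89169712 on the plus strand for Clk2 and chr9:57758617-57758733 on the minus strand for Clk3.
Clk1: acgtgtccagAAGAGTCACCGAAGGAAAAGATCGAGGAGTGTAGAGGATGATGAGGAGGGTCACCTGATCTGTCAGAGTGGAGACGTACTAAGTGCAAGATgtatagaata
Clk4: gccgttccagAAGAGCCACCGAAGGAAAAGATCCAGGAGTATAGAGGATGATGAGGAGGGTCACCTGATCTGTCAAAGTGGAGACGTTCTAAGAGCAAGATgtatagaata
Clk2: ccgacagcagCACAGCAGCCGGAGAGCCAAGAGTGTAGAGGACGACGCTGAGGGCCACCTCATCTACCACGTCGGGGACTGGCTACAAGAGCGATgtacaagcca
Clk3: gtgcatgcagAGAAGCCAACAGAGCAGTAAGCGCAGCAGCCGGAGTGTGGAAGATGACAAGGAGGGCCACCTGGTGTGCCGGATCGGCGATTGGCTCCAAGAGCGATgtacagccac

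Exon 4 of Clk1 and of Clk4 is 91 bases long in each, and 85 of the 91 bases are identical (93.4%). The other 5 pairs of CLK genes had 63.6% to 66.3% identical columns in a global alignment. The exon is 85 bases long in Clk2, where the annotation also holds a second form that starts at another place, and 97 bases in Clk3. All 4 lengths leave a remainder of 1 base after division by 3, so leaving the exon out shifts the reading frame. The intron after exon 4 begins with GTATAG in both Clk1 and Clk4, with GTACAA in Clk2 and with GTACAG in Clk3. The intron before exon 4, held by the same transcripts, begins with GTATGA in Clk1 and Clk4 and with GTGAGT in Clk2 and Clk3. Over the 8650 introns of coding transcripts that some retained_intron transcript of any gene covers whole, GTATAG began 15 (0.173%), GTACAA began 18 (0.208%) GTACAG began 66 (0.763%) and GTATGA began 74 (0.855%), while GTAAGT began 9.32% and GTGAGT 14.6%. Clk1 and Clk4 are paralogs, so their shared letters are not independent. Letters were read only at the first 6 bases on the strand of the gene, and they describe the introns without naming a factor that acts on them.

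Rsrp1 lies on chr4:134923592-134927671 on the plus strand, spans 4080 bases and has 8 annotated transcripts. Its leading transcript, Rsrp1-204, keeps the 1302-base intron chr4:134925433-134926734, which follows exon 3 of the 5 exons of the coding transcript Rsrp1-201. The ends of that intron are shown with 15 exon bases outside each end, and capitals mark the first 6 and the last 3 intron bases.
Rsrp1 intron start: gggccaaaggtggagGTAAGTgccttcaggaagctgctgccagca
Rsrp1 intron end: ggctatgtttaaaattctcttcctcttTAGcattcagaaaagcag

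Rsrp1 was present at 1487, 1286 and 1114 TPM in replicates 1, 2 and 3 (ranks 6, 3 and 9 among protein-coding genes). The mean was 1296 ± 187 (SD, n = 3), rank 6 (rank 14 in the second transcript table described below). Zeb2, an E-box binding repressor, stood 1 place above at 1305 ± 279 TPM and Fyb, an adaptor protein of immune cells, 1 place below at 1173 ± 113 TPM (SD, n = 3 each). Nearly none of this level was on the transcript that encodes the protein. Rsrp1-201, the only protein_coding transcript, was at 4.15, 2.26 and 6.06 TPM, which is 0.202%, 0.112% and 0.365% of the expected counts of the gene. By protein-coding transcripts alone Rsrp1 had the lowest mean level of the 8 genes, 4.16 ± 1.90 TPM (SD, n = 3), rank 5940.

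Rsrp1-204 took 78.8%, 83.9% and 78.8% of the counts of Rsrp1 and 58.8%, 70.0% and 62.9% of its TPM, the second scale being corrected for length. Its own level was 874, 900 and 701 TPM. The processed transcript Rsrp1-203, which encodes no annotated protein, took 14.8% ± 2.17 of counts (SD, n = 3). The other 6 transcripts, Rsrp1-201 among them, were each below 10% of counts, and 5 of the 8 were below 1%. On the TPM scale the processed transcript Rsrp1-205 was not minor. It took 15.2% ± 7.21 of TPM (350, 139 and 127 TPM), beside 17.3% ± 2.67 for Rsrp1-203 (SD, n = 3 each). Read in the frame of Rsrp1-201, which has 298 codons, the kept intron reached a stop at its base 49, after 248 codons. Over the 3 libraries the protein-coding genes with TPM nearest to those of Rsrp1, by Euclidean distance of log2(TPM + 0.1), were Ikbke at a distance of 0.304, Fyb at 0.323 and Zeb2 at 0.378. Ikbke encodes the kinase IKK-epsilon, and its protein-coding transcripts alone had a mean of 397 TPM.

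In mm10, Clk1 lies on chr1:58410189-58424066 (minus strand), Clk2 on chr3:89164795-89176921 (plus), Clk3 on chr9:57750624-57765860 (minus) and Clk4 on chr11:51261730-51281766 (plus). Luc7l lies on chr17:26252896-26285504 (plus), Luc7l2 on chr6:38551334-38609470 (plus) and Luc7l3 on chr11:94287890-94321988 (minus). Clk4 and Luc7l3 share a chromosome and do not overlap.

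Luc7l2 came next after Rsrp1 at 417, 422 and 482 TPM, a mean of 440 ± 35.9 (SD, n = 3). Clk1 followed at 296, 202 and 339 TPM (279 ± 70.1), lowest in replicate 2 and highest in replicate 3. Luc7l3 was at 188, 188 and 174 TPM (184 ± 8.01), with all libraries close together. Clk4 was at 89.9, 90.6 and 70.9 TPM (83.8 ± 11.1), lower in replicate 3 than in the others. Clk3 was at 67.3, 64.5 and 66.3 TPM (66.0 ± 1.38), the smallest relative spread of the 8.

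Luc7l was at 42.9, 56.0 and 49.5 TPM (49.5 ± 6.54) and Clk2 at 41.9, 55.2 and 42.2 TPM (46.4 ± 7.62), both highest in replicate 2. The ranks of the 7 genes other than Rsrp1 among protein-coding genes ran from 58 for Luc7l2 to 1558 for Clk2. The order Rsrp1, Luc7l2, Clk1, Luc7l3, Clk4, Clk3, Luc7l, Clk2 held in every library for all 7 neighbouring pairs. The step from Luc7l to Clk2 was only 0.10 ± 0.12 (SD, n = 3) on the log2 scale, less than its own spread. The step from Clk1 to Luc7l3 was 0.57 ± 0.43 and fell to 0.10 in replicate 2. In the second transcript table, which has the layout kallisto writes, 5 of 7 neighbouring pairs held in every library.

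Counting only protein-coding transcripts reordered the genes. Luc7l3 was then highest at 97.2, 93.8 and 84.1 TPM, followed by Luc7l2 at 70.3, 79.6 and 102 TPM, with overlap between libraries. Clk4 (22.5 ± 1.75) and Clk3 (20.9 ± 3.22) overlapped in the middle, and Luc7l followed at 14.5 ± 2.54. Clk2 (6.58 ± 1.71) and Clk1 (5.48 ± 0.964) overlapped near the bottom, just above Rsrp1 (TPM, SD, n = 3 each). In the second transcript table that overlap was gone: the protein-coding transcripts of Clk2 were at 11.8, 18.8 and 11.3 TPM and those of Clk1 at 5.15, 3.57 and 4.80 TPM. There Luc7l had a mean of 22.4 TPM, beside 22.4 for Clk3 and 17.2 for Clk4, and Rsrp1 was again lowest at 1.88 TPM. Clk1 thus stood 3 from the top by all transcripts and just above Rsrp1 by protein-coding ones. The median protein-coding gene with a mean above 1 TPM had 57.0% of its TPM on protein-coding transcripts, against 1.99% ± 0.178 in Clk1 and 49.9% ± 1.66 in Luc7l3.

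**Figure D1:**
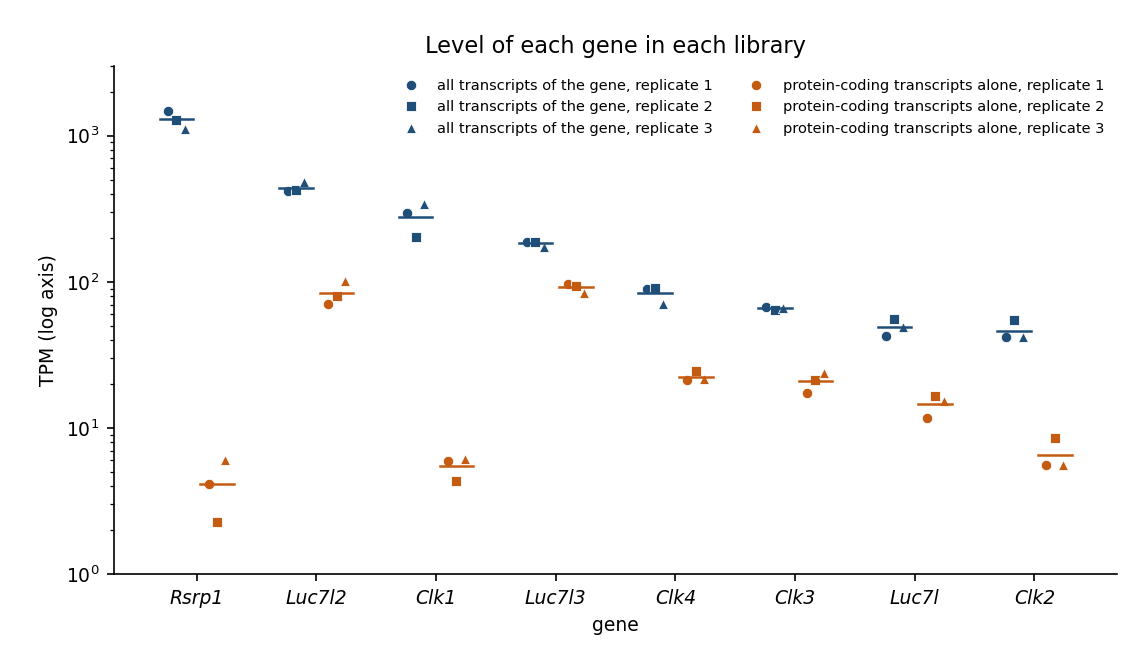
TPM on a log axis for each gene in each library, over all its transcripts (blue) and over its protein-coding transcripts alone (orange), with circles, squares and triangles for replicates 1, 2 and 3 and a bar at the mean. Rsrp1 falls from a mean of 1296 TPM to 4.16 TPM and Clk1 from 279 to 5.48 TPM, while Luc7l3 falls from 184 to 91.7 TPM.

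Between libraries 7 of the 8 genes had a smaller spread than the median gene under TMM scaling. The genes compared were not matched for counts, so the smaller spread is not shown to be particular to this set. On the log2 CPM scale (counts scaled to a fixed sum, with TMM scaling), the SD over the 3 libraries was 0.18 for Rsrp1 and 0.37 for Clk1, and from 0.08 (Luc7l3) to 0.19 (Clk2) for the other 6, against a median of 0.24 over 14140 genes. Scaling by total counts instead changed which gene was steadiest: the SD was then 0.0755 for Luc7l2 in place of 0.129 and 0.134 for Luc7l3 in place of 0.0811. Clk1 deviated from its mean by 0.10, -0.40 and 0.31 in replicates 1, 2 and 3, so its highest library was 1.64-fold above its lowest. The other 7 genes spanned 1.10-fold to 1.29-fold. Replicate 2, where Clk1 was lowest, also had the smallest RNA input, and the part of input in this spread was not tested.

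The share of each gene's expected counts on retained_intron transcripts was compared with 50% by an intercept-only limma model of the log2 odds. The test was two-sided, with Benjamini-Hochberg adjustment over 6613 genes. These were the protein-coding genes that have both a retained_intron and another transcript and that passed the count minimum. Genes with no retained_intron transcript were left out. All 8 genes passed that minimum, and the 7 genes other than Rsrp1 were tested. Of these 7, 5 were above 50%, where 18.1% of all genes tested were, and 1 was below, where 62.1% of all genes tested were. With the second transcript table, 4 of the 7 were above, where 24.9% of 7889 genes were, and on shares of TPM 1 was below, where 37.2% of 6613 genes were. The median share of the 7 was 60.0%, beside 28.1% over all 6613 genes. The test compares a gene with a fixed share and not with other genes, and n is 3 libraries throughout. The background genes were not matched for counts or for the number of annotated retained_intron transcripts. Among the 7 tested genes that number ran from 2 (Luc7l and Luc7l3) to 7 (Clk1 and Clk4), and its part in the shares was not tested.

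Clk1 had the highest share, 87.1%, 88.7% and 87.6% of counts (87.8% ± 0.801), with a limma adjusted p of 0.000249. Clk3 followed at 79.6%, 77.4% and 72.9% (limma adjusted p = 0.00135) and Clk4 at 69.1%, 70.4% and 66.7% (limma adjusted p = 0.00354). These 3 kinase genes kept the call when any 1 library was left out. Clk2 had 64.0%, 61.4% and 54.4%, and its limma adjusted p was 0.0499. Without replicate 1 the adjusted p of Clk2 was 0.179, without replicate 2 it was 0.192, with no lower limit on counts it was 0.0612, and on shares of TPM it was 0.0871.

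Luc7l2 had 58.4%, 62.0% and 59.6% of its counts on retained_intron transcripts (limma adjusted p = 0.0313). Its call rested on all 3 libraries: the limma adjusted p was 0.0773, 0.178 and 0.0798 without replicates 1, 2 and 3, and 0.108 in the second transcript table. Luc7l had 57.9%, 53.7% and 51.4%, which did not pass (limma adjusted p = 0.265), although its share of TPM, 67.2% ± 3.40, did (limma adjusted p = 0.0105). Luc7l3 stood apart at 4.44%, 3.15% and 3.03% of counts, below 50% in every library (limma adjusted p = 0.000164). The share of TPM of Luc7l3, corrected for length, was higher at 20.96% ± 3.62 (SD, n = 3). It was also below 50% (limma adjusted p = 0.00267). Rsrp1, without a test, had 80.5% ± 2.91 of counts.

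**Figure D2:**
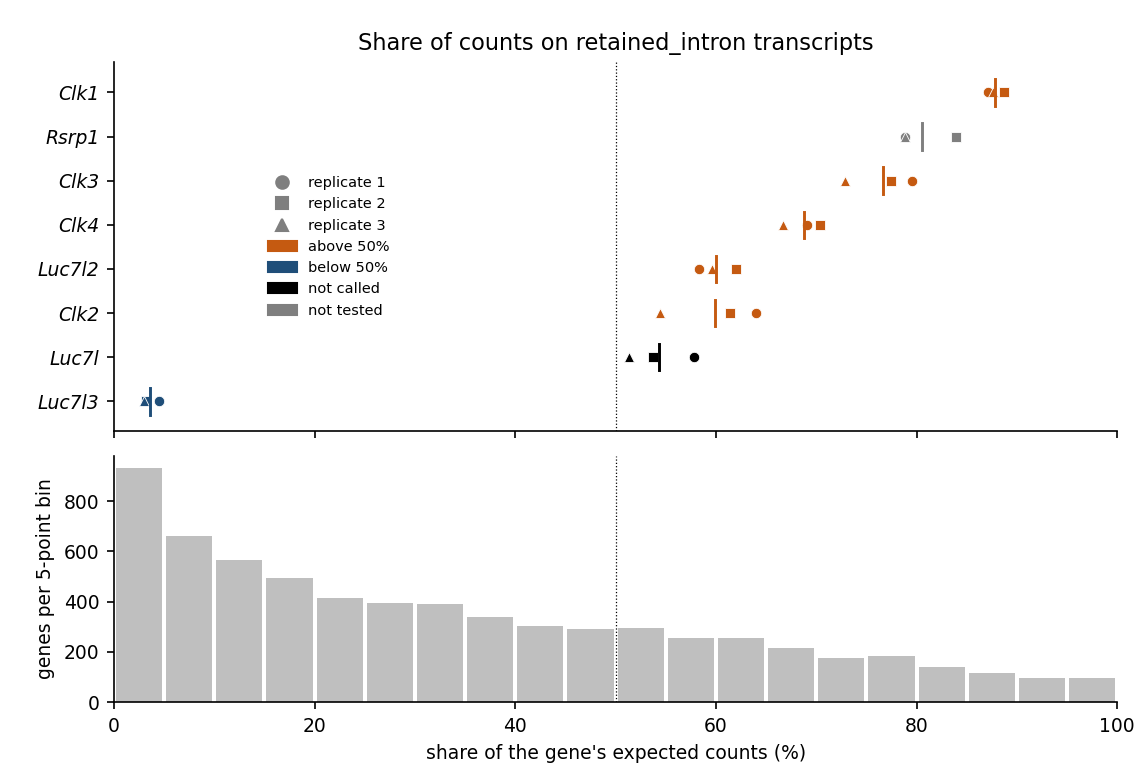
Top, share of expected counts on retained_intron transcripts in percent for each gene, with 1 symbol per replicate, a bar at the mean and colours for the limma call against 50%. Bottom, number of genes per 5-point bin over the 6613 protein-coding genes that have a retained_intron and another transcript and passed the count minimum. All genes of the set but Luc7l3 lie right of the dotted 50% line.

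The remaining counts went to different classes in different genes. In Clk1, protein_coding transcripts took 1.82% ± 0.141 of counts, transcripts typed as targets of nonsense-mediated decay (the removal of RNA with an early stop) 3.63% ± 0.148, and processed transcripts 6.75% ± 0.684. In Clk2 the class typed for nonsense-mediated decay, which is the single transcript Clk2-204, took 26.2% ± 4.83 and protein_coding transcripts 13.8% ± 1.72. In Clk3 and Clk4 the protein_coding class came second, with 22.8% ± 3.36 and 28.2% ± 1.15. In Luc7l it took 44.0% ± 2.64 and in Luc7l3 87.3% ± 3.72, while Luc7l2 was divided between protein_coding transcripts (20.0% ± 2.19) and those typed for decay (19.2% ± 3.66). These errors are SD over 3 libraries.

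**Figure D3:**
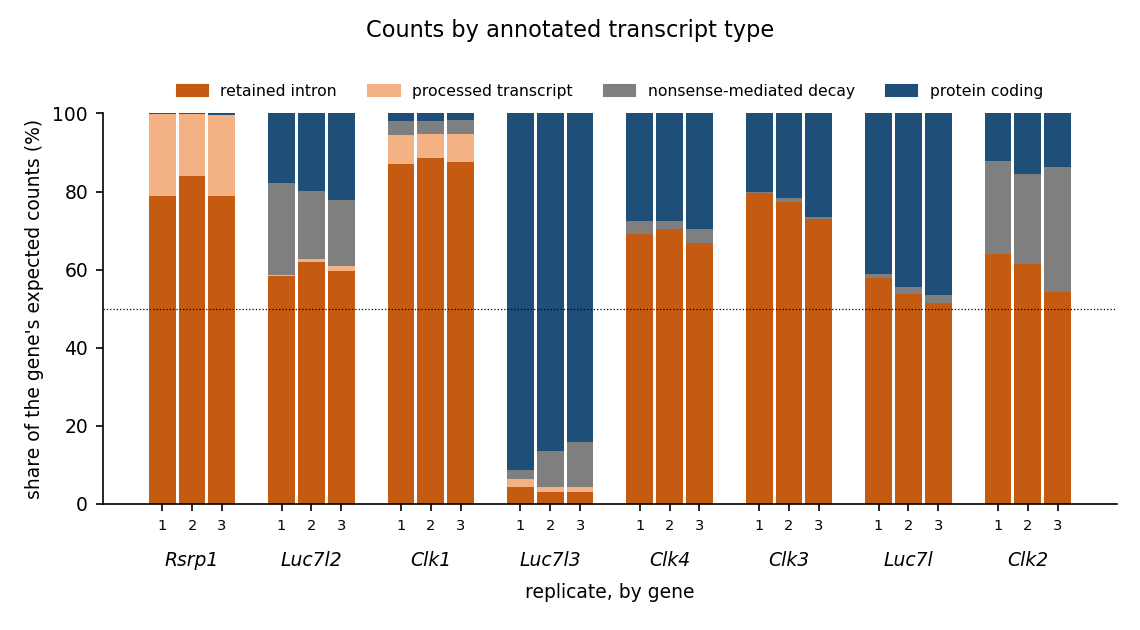
Stacked shares of each gene's expected counts by annotated transcript type, 1 bar per replicate, with a dotted line at 50%. Retained_intron transcripts fill 78.8% to 88.7% of the bars of Rsrp1 and Clk1 and 3.03% to 4.44% of those of Luc7l3.

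Within the type, the transcripts differed in how they cover intron sequence. Clk1-204 took 47.6% ± 1.02 of the counts of Clk1, covers 3 introns of coding transcripts whole and has 69.4% of its 3191 bases outside coding exons. Clk1-202 took 24.3% ± 1.99 and Clk1-212 12.6% ± 0.746. Clk4-213 took 58.6% ± 2.05 of the counts of Clk4 and 47.3% in the second transcript table. Clk3-203 took 53.0% ± 1.03 and Clk3-208 17.1% ± 1.73 of the counts of Clk3. Clk2-207 took 33.2% ± 4.35 and Clk2-211 18.0% ± 0.429 of the counts of Clk2 (SD, n = 3 each).

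Clk1-202, Clk2-211 and Clk3-208 cover no such intron whole, although 61.0%, 70.7% and 88.6% of their bases lie outside coding exons.

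No transcript of Luc7l or of Luc7l2 covers an intron of a coding transcript whole. Their retained_intron transcripts have bases outside coding exons without covering a whole such intron. Luc7l2-206 took 30.8% ± 1.54 of counts and has 86.6% of its bases outside coding exons, and Luc7l-204 took 41.8% ± 3.73 and has 39.6%. Luc7l2-203, with 23.4% ± 0.498 of counts, has only 10.4% of its bases outside coding exons. In Luc7l3 the protein_coding transcript Luc7l3-202 took 50.6% ± 3.03 of counts (SD, n = 3) and covers whole stretches that other coding transcripts of the gene splice out.

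When transcripts were sorted by structure, as those that cover at least 1 whole intron of a coding transcript, an alternative added after the data were seen, the share of Luc7l3 was 57.2% ± 3.25 in place of 3.54% ± 0.780. By the same sorting Clk1 had 66.7% ± 1.31, Clk3 70.2% ± 4.58, Clk4 59.1% ± 1.47 and Clk2 41.9% ± 4.65 (SD, n = 3 each). Against 50% the log2 odds of Luc7l3 turned from -4.79 to 0.42 (limma adjusted p = 0.0962) and those of Clk2 from 0.58 to -0.47 (limma adjusted p = 0.0875), so neither gene was called. Clk1, Clk3 and Clk4 stayed above on these counts. Shares of TPM, corrected for length, were not tested by this sorting, and their means were lower for these 3 genes. They were 48.4% ± 2.28 in Clk1, 47.1% ± 3.33 in Clk3 and 24.6% ± 0.754 in Clk4. In Clk2 the share of TPM was 42.7% ± 3.72 and in Luc7l3 35.8% ± 2.41 (SD, n = 3 each). With counts of the second transcript table Clk4 had 47.7% ± 1.41. Of the 4201 genes with such transcripts, 27.3% were above and 51.3% below, and their median was 36.4%.

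Exon 4 was the place where the 4 kinase genes could be set side by side. Transcripts that cross it were sorted into those that hold both neighbouring introns, those that join the exon on both sides and those that skip it, and shares were taken of their summed TPM. The introns before and after the exon are 871 and 387 bases long in Clk1, 1055 and 391 in Clk4, 694 and 346 in Clk2, and 2100 and 276 in Clk3. In the frame of the coding transcript Clk1-201, which has 483 codons, the held intron reached a stop at its base 4, inside its first 6 letters GTATGA. The same held for Clk4, whose intron before exon 4 also begins with GTATGA, in the frame of Clk4-201 with its 481 codons. The stop lay at base 58 of that intron in Clk2 and at base 34 in Clk3. Taking exon 4 alone out of the coding transcript gave a stop after 135 codons in Clk1, 135 in Clk2 and 134 in Clk4, in each case within exon 5, and after 300 of 638 codons in Clk3. These positions were read from the annotated sequences and not measured, and they do not describe every skipping transcript. Clk4-203, the highest skipping transcript of Clk4 at a mean of 5.61 of the 11.97 TPM of its class, also lacks exon 2 of Clk4-201 and is typed protein_coding.

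**Figure D4:**
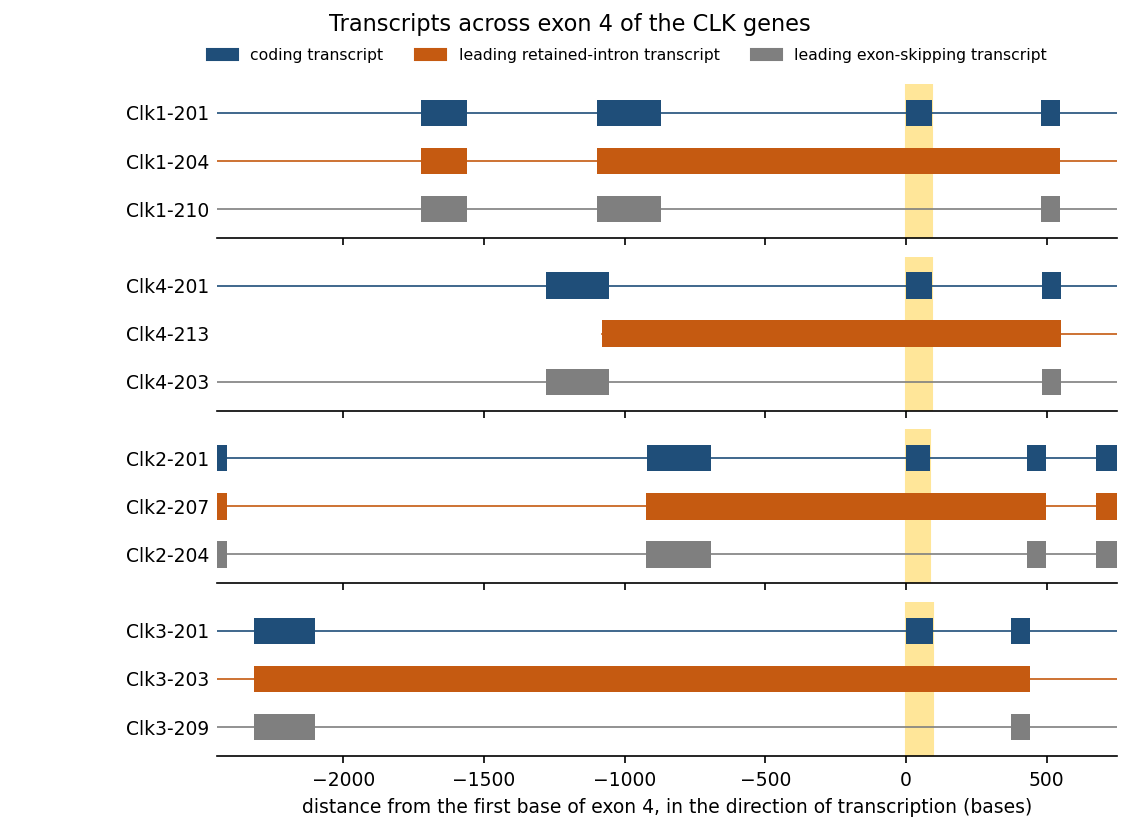
Exons (boxes) and introns (lines) of the coding transcript, the leading retained-intron transcript and the leading exon-skipping transcript of each kinase gene, by distance in bases from the first base of exon 4, which is shaded. In each gene 1 unbroken block of the retained-intron transcript covers exon 4 and both introns beside it, which are 276 to 2100 bases long.

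In Clk1, transcripts that hold both introns made up 83.6%, 79.0% and 82.1% of the crossing TPM, those that join the exon 5.35%, 5.06% and 4.78%, and those that skip it 11.0%, 15.9% and 13.1%. The joined form was the lowest of these classes in every library. Clk4, the closest in sequence, had 49.2%, 57.7% and 50.8% with both introns held, 18.8%, 11.9% and 13.2% joined and 32.0%, 30.4% and 36.1% skipped. In both genes the held class was highest and the joined class lowest in every library, and the held share was lower in every library of Clk4 than in any of Clk1. The order within Clk4 depended on the table: in the second transcript table Clk4 had 31.5%, 37.3% and 30.0% held, 9.51%, 7.14% and 7.44% joined and 59.0%, 55.6% and 62.5% skipped, so there the skipped class was highest in every library. For Clk1 the second table gave means of 83.3% held, 5.48% joined and 11.2% skipped. Which class of Clk4 was higher, held or skipped, is therefore uncertain.

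Clk2 had 38.2%, 34.2% and 26.8% held, 18.4%, 24.1% and 19.9% joined and 43.4%, 41.7% and 53.3% skipped. By these shares of TPM the skipped form, which in Clk2 is the transcript Clk2-204 alone, exceeded the held form in every library. It did so in the second table too, with means of 46.9% and 31.7%. By counts, not corrected for length, the held form of Clk2 took 37.1%, 33.9% and 28.5%. The skipped form took 23.9%, 23.0% and 31.8% of counts, so the order turned in replicates 1 and 2. Clk2-206, at 6.81, 8.63 and 6.56 TPM, holds exon 4 and the whole intron after it and is in neither class. Which form of Clk2 was higher is therefore uncertain. Clk3 had 59.9%, 54.7% and 52.6% held, 37.3%, 38.6% and 43.6% joined and 2.77%, 6.72% and 3.79% skipped. The skipped share of Clk3 lay below that of the other kinase genes in every library and the joined share lay above theirs, in both tables. These shares were not tested against each other, since the transcripts of 1 gene share its reads and the assignment among them is an estimate. The held class had a mean level of 88.7 TPM in Clk1, 20.5 TPM in Clk3, 19.2 TPM in Clk4 and 9.09 TPM in Clk2. Transcripts that do not cross exon 4 are outside these shares. They had a mean of 162 TPM in Clk1, 26.9 TPM in Clk3, 47.2 TPM in Clk4 and 11.6 TPM in Clk2.

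**Figure D5:**
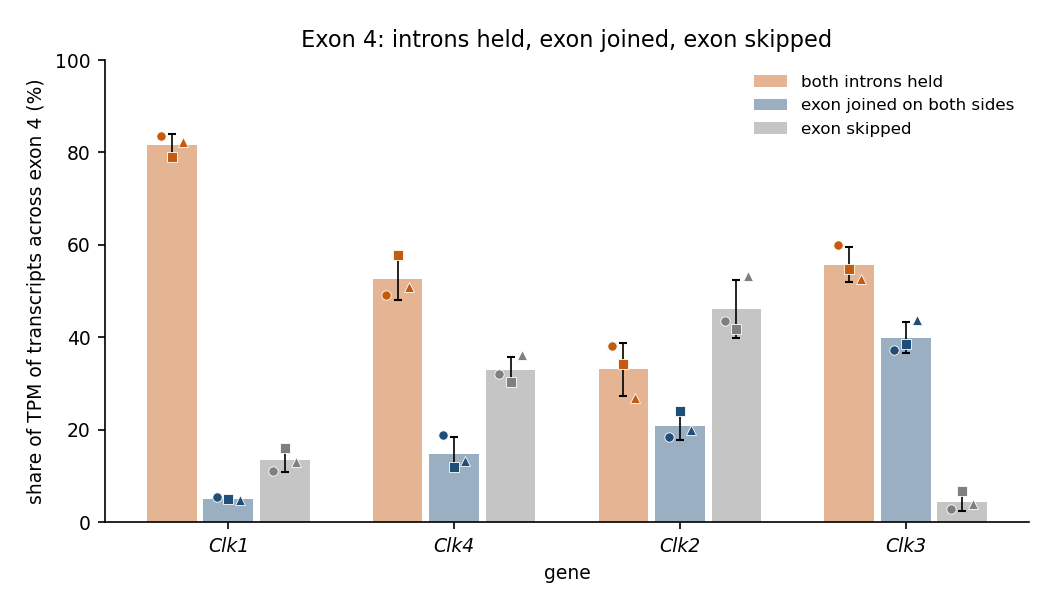
Share of the TPM of transcripts that cross exon 4, in percent, by whether both introns are held (orange), the exon is joined on both sides (blue) or the exon is skipped (grey), with 1 symbol per replicate (circle, square and triangle for 1, 2 and 3), bars at the mean and error bars of 1 SD. The held class leads in Clk1 (81.6%), Clk4 (52.6%) and Clk3 (55.7%), and the skipped class leads in Clk2 (46.1%). In the second transcript table the skipped class leads in Clk4 too (59.0%). Transcripts that hold exon 4 with 1 side not joined are left out.

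Other genes overlap 4 of the 8 in the annotation, and whether the counting used strand is not given in the sources used here. Edc3, an mRNA decapping factor on the opposite strand, shares 1876 bases with Clk3 and was at 7.23 ± 0.340 TPM. The lincRNA Gm26699 shares 2477 bases with Luc7l2 on the opposite strand and was at 20.5 ± 4.19 TPM, beside 440 TPM for Luc7l2. Gm25082, a small RNA of 255 bases inside Clk4 on its strand, was at 13.97 ± 5.56 TPM, and BC049762, on the other strand, at 0.0433 ± 0.0751 TPM. Within Luc7l, the antisense gene AC126438.2 was at 2.48 ± 0.833 and the pseudogene Gm16580 at 2.90 ± 0.599 TPM, beside 49.5 TPM for Luc7l (SD, n = 3 each). Clk1 and Clk4 are close paralogs, so reads from stretches they share could be divided between them by estimate, and their values are uncertain to that extent.

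Other genes of the same pathway show what the levels and shares stand among. Over all protein-coding genes, 46.4% had a mean above 1 TPM. Of 12 other kinases of SR proteins and relatives, 10 had such a mean and the list median was 23.8 TPM, with Prpf4b, a kinase of the spliceosome, highest at 128 ± 4.77 TPM and Dyrk4 lowest, listed at 0 in every library. All 7 of them that were tested passed, 2 above 50% retained_intron counts and 5 below, and Prpf4b was below at 11.2% ± 0.492 (limma adjusted p = 0.000222). Clk2, the lowest of the CLK genes, had a higher mean level than the median of this list.

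Of the 13 SR proteins and Tra2 proteins, the substrates of the CLK kinases, 12 had a mean above 1 TPM (46.4% over all protein-coding genes), and the list median was 86.2 TPM. Srsf5 was highest at 578 ± 69.2 TPM and Srsf12 was listed at 0 in every library. Of the 10 tested, 6 were above 50%, 1 was below and 3 were not called, and Srsf5 was above at 80.5% ± 2.14 (limma adjusted p = 0.000644). Of the 18 U1 snRNP proteins and partners, beside which the Luc7-like proteins work, 17 had a mean above 1 TPM (46.4% over all protein-coding genes), with a median of 16.8 TPM. The RNA helicase Ddx5 was highest at 861 ± 85.8 TPM and below 50% at 2.97% ± 0.781 (limma adjusted p = 0.000169). Snrpf, a core Sm protein, was lowest at 0.43 ± 0.106 TPM and was not tested. Of the 14 tested, 7 were above, 2 below and 5 not called. The backgrounds for these counts are the 18.1% above and 62.1% below over all genes tested, and the median shares of the tested genes were 29.1% for the kinases, 67.1% for the SR and Tra2 proteins and 58.9% for the U1 partners.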

How the data were processed

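The data were total RNA-seq libraries of 3 biological replicates in 1 group. Per the file headers, the authors deposited gene and transcript tables of expected counts and TPM, in the layout RSEM writes, and a second transcript table of estimated counts and TPM, in the layout kallisto writes. The deposited notes name mm10 and annotation release M21. The aligner, the versions and the strand setting were not given in the sources used here. Rows that name no gene held 1.04%, 0.425% and 0.401% of expected counts and were left out.

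Depth was 12532722 to 18395358 expected counts, and expected counts per library ran from 801 (Clk2) to 47691 (Rsrp1) among the genes described. A count of 0 allows up to 3 counts, which is 0.242, 0.164 and 0.165 CPM, and covers counting error only.

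The members and lists were chosen with earlier results of these data known. The genes named are the members, their transcripts with at least 10% of counts, the 3 protein-coding genes nearest to Rsrp1, the highest and lowest of each related list and the genes that overlap a member. For exon 4, transcripts below that share were included by their structure, after the values were seen.

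Retained_intron counts against all others (0.5 added to each) were tested against 50% with limma 3.58.1, at an adjusted p threshold of 0.05. The genes tested were protein-coding, had a retained_intron and another transcript, and had at least 10 expected counts in every library. The model was also run on simulated data, with the same spread in every gene and most genes set at 50%. Those settings differ from these data, so that run does not bear on the calls given here. Spread used rounded expected counts, TMM scaling and filterByExpr in edgeR 4.0.16, and DESeq2 1.42.0 size factors as an alternative. Sequences were read from the M21 transcripts and aligned with Biopython 1.88. Protein sequences were not used here. The closing section gives the effect of the alternatives.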

Additional observations from a re-analysis of the deposited data

How the results depend on the processing

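The number of genes above 50% retained_intron counts was 1967 with the second transcript table in place of 1196, and on shares of TPM 2458 were below in place of 4105. Leaving out 1 library gave 897 to 1139 genes above, 3758 to 3859 below, and 3 to 4 of the 7 tested members above in place of 5. Sorting by structure, an alternative added after the data were seen, left 5 members with such transcripts. By limma on counts, 3 of these 5 were above and 0 below (0 also at an unadjusted p under 0.05). Of 4201 genes, 1147 (27.3%) were above and 2157 (51.3%) below. The log2 odds reversed for Clk2 (-0.47) and Luc7l3 (0.42), and Luc7l and Luc7l2 gave no value. On shares of TPM, not tested by structure, Clk1, Clk3 and Clk4 had means of 48.4%, 47.1% and 24.6%.

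Mean TPM in the second table was 1075 for Rsrp1, 68.6 for Clk3, 122.8 for Clk4 and 192.9 for Luc7l3. Scaled over protein-coding genes alone it was 4107 for Rsrp1, 881 for Clk1, 148 for Clk2, 209.7 for Clk3, 266 for Clk4, 158 for Luc7l, 1400.03 for Luc7l2 and 583 for Luc7l3. Over protein-coding transcripts, added after the data were seen, it was 4.16, 5.48, 6.58, 20.9, 22.5, 14.5, 84.0 and 91.7 in the same gene order, and 4 of 7 neighbouring pairs held in every library. Without retained_intron transcripts, added likewise, it was 471 for Rsrp1, 68.7 for Clk1, 19.2 for Clk2, 22.6 for Clk3, 28.8 for Clk4, 16.3 for Luc7l, 174 for Luc7l2 and 145 for Luc7l3. Over protein-coding transcripts in the second table, added likewise, it was 1.88 for Rsrp1, 4.51 for Clk1, 13.98 for Clk2, 22.4 for Clk3, 17.2 for Clk4, 22.4 for Luc7l, 63.7 for Luc7l2 and 67.4 for Luc7l3. Under total count scaling the SD of log2 CPM was 0.0755 for Luc7l2 in place of 0.129 and 0.134 for Luc7l3 in place of 0.0811, and the other 22 values under these alternatives stayed within 1.5 times.

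Shares of counts in the second table that moved by more than their SD were 18.3% for Rsrp1-203, 76.0% for Rsrp1-204, 22.01% for Clk1-202, 10.2% for Clk1-212, 28.5% for Clk2-207, 19.9% for Clk2-211, 54.4% for Clk3-203, 9.68% for Clk3-205, 9.72% for Clk4-202, 47.3% for Clk4-213, 39.7% for Luc7l-202, 21.1% for Luc7l2-203, 13.3% for Luc7l2-204, 24.3% for Luc7l2-206, 9.83% for Luc7l2-207, 47.1% for Luc7l3-202 and 23.9% for Luc7l3-209. Across exon 4 it gave 5.48% joined for Clk1, and 32.96% held, 8.03% joined and 59.0% skipped for Clk4. The cause of these differences was not tested. No paired analysis was possible because there is 1 group.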
